A study of Saccharomyces cerevisiae with 6 samples.

Results

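Insertions upstream of 43 ribosome biogenesis genes of budding yeast were counted in 6 calling cards libraries. The genes, of 6002 protein-coding genes on the nuclear chromosomes, were chosen by function, with earlier results of these data known. They encode 4 proteins of box C/D snoRNPs, 4 of box H/ACA snoRNPs and 4 subunits of RNA polymerase I. The others encode 7 factors of the small ribosomal subunit and 24 of the large subunit. For each gene, insertions were counted in the window of 700 bp upstream of the start codon. MRT4, a relative of ribosomal protein P0, was not counted because the gene table and the files do not line up where it lies on chromosome XI, which left 42 windows of 5765 for all genes. These cover 28.8 kb together, since the windows of RPA190 and RPA43 share 596 bp.

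In calling cards, a TF is fused to Sir4, a silencing protein that binds the Ty5 integrase, so that the Ty5 retrotransposon inserts near the places where the TF sits. The 6 TFs were Sfp1, Eds1, Ino4, Zap1, Leu3 and Rgt1, each with 1 library. All strains were BY4741 with sir4 deleted. A single clone carried each TF, with Sir4 at its C-terminus, on a plasmid, and a second plasmid held Ty5 behind the galactose-inducible GAL1/10 promoter. DNA was cut in 3 separate enzyme digests before inverse PCR.

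Ribosome biogenesis begins in the nucleolus, where RNA polymerase I makes the long rRNA precursor. Small nucleolar RNPs then modify it, box C/D particles by methylation and box H/ACA particles by pseudouridylation, while assembly factors, helicases and GTPases carry the small and large subunits towards the cytoplasm. In yeast this set of genes is turned on and off with growth, and Sfp1 is known as an activator of it and of the ribosomal protein genes. Leu3 is known for leucine synthesis genes, Ino4 for phospholipid genes, Zap1 for zinc genes and Rgt1 for hexose transporter genes, and Eds1 is the paralog of Rgt1.

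The libraries held 35758 insertions for Sfp1, 30707 for Eds1, 15951 for Ino4, 16019 for Zap1, 75550 for Leu3 and 29776 for Rgt1. One insertion is therefore 0.280 per 10000 insertions of the Sfp1 library and 0.627 per 10000 of the Ino4 library. With 1 library per TF there was no replicate check, and every test and interval compares libraries and covers counting error only. PCR reads carried no molecular tag, so insertions at one position may not all be separate events. A library with many insertions at its own targets has fewer left elsewhere. Only 27.2% of Rgt1 insertions, against 55.2% of Leu3 and 74.4% to 80.6% of the other libraries, lay in 1 kb windows in which no TF was enriched.

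The ribosome biogenesis promoters took few insertions. Over the 6 libraries together, a window held a median of 7 insertions, against 20 in the windows of 134 ribosomal protein genes, 10 in those of 105 other ribosome biogenesis genes and 14 in all windows. Of the 42 windows, 11 held 0 to 4 insertions, 13 held 5 to 9 and 18 held 10 or more. The last group made up 42.9% of the windows, compared with 64.9% of all windows. Only 10 windows lay above the median of all windows and 30 lay below it.

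**Figure D1:**
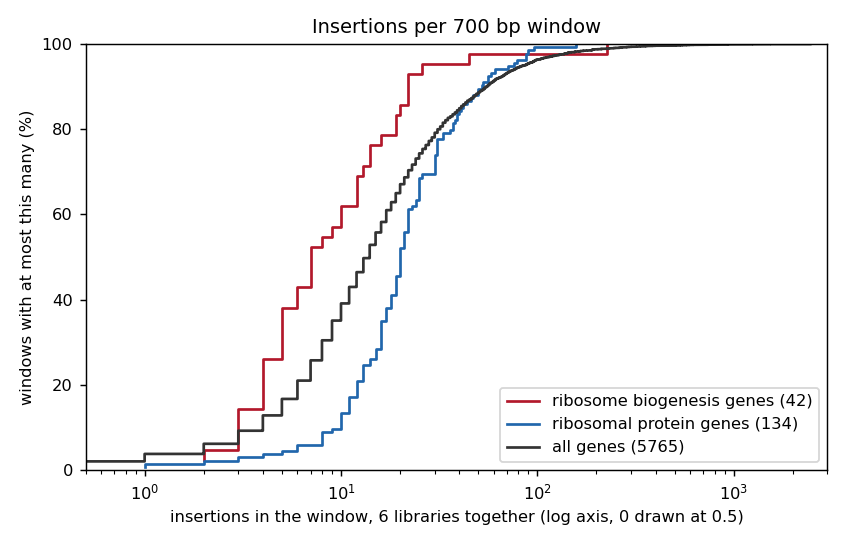
Cumulative share of windows (vertical axis, %) holding at most a given number of insertions over the 6 libraries (horizontal log axis), for 42 ribosome biogenesis genes, 134 ribosomal protein genes and all 5765 genes. The curve of the ribosome biogenesis genes lies to the left of the others over most of its course, with a median of 7 insertions, against 20 and 14.

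The windows also held less noncoding DNA. Their median noncoding share was 53.0%, against 65.7% over all windows, and 20 of the 42 genes were divergent from their upstream neighbour. The divergent windows held a median of 5 insertions and the 22 tandem windows a median of 10. Neither the share of divergent genes nor these medians were computed over all genes. Per kb of noncoding sequence, the windows had 31.3 insertions, against 37.5 for other ribosome biogenesis genes, 41.7 for ribosomal protein genes and 52.1 for all genes. YTM1 supplied 227 of the insertions, and without it, left out after its values were seen, the value was 19.7 per kb. The other sets kept all their windows, with up to 299 insertions among other ribosome biogenesis genes and 2477 among all genes.

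The 11 sparsest windows, with 2 to 4 insertions in all, belonged to NOP1, RPA49, RRP12, NOP2, NOP4, NOP7, DBP9, RLP24, NOG1, SSF1 and RIX1. NOP1 encodes the methyltransferase of box C/D particles, and its only 3 insertions were all from the Sfp1 library. RPA49, a subunit of RNA polymerase I, had 2 insertions, both from Leu3, and none from Sfp1. NOP2, an rRNA methyltransferase, and NOP7 each had 2 Zap1 and 2 Leu3 insertions and none from Sfp1. NOP4 had 1 Zap1 and 1 Leu3 insertion, and DBP9, a helicase, had 1 each from Ino4, Zap1 and Leu3. The other 5 windows held 1 Sfp1 insertion each. NOG1, a GTPase, had 2 further insertions, both from Leu3. SSF1, a Brix domain protein, had 1 from Ino4 and 1 from Leu3. RLP24, a relative of ribosomal protein L24, and RRP12 each had 1 from Zap1 and 2 from Leu3. RIX1 had 1 each from Eds1, Zap1 and Leu3. None of these 11 windows reached the minimum of 10 insertions, so none was tested.

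Summed over the 42 windows, the Sfp1 library had the highest share of its library total. It placed 153 insertions there, or 0.428% of the library (95% exact binomial interval 0.363% to 0.501%). The shares were 0.251% for Eds1 (77 insertions), 0.219% for Ino4 (35), 0.256% for Zap1 (41), 0.404% for Leu3 (305) and 0.067% for Rgt1 (20). The interval of Sfp1 overlapped that of Leu3, 0.360% to 0.451%, and none of the others. The Leu3 share rested on 1 gene. Without YTM1 it was 0.164%, whereas that of Sfp1 was 0.392%, that of Zap1 0.225%, that of Eds1 0.192%, that of Ino4 0.182% and that of Rgt1 0.054%. With totals from windows in which no TF was enriched, the value was 0.547% for Sfp1 and 0.732% for Leu3, which was then the highest. The member counts here kept every insertion, the 181 from Leu3 at YTM1 included, while those totals leave out enriched windows. Without YTM1 the values were 0.501% for Sfp1, 0.298% for Leu3, 0.299% for Zap1, 0.258% for Eds1, 0.226% for Ino4 and 0.197% for Rgt1. The ratio of Sfp1 to the other 5 libraries was 1.504 (1.25 to 1.81) with library totals and 1.12 (0.925 to 1.34) with those totals, an interval that includes equal shares.

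**Figure D2:**
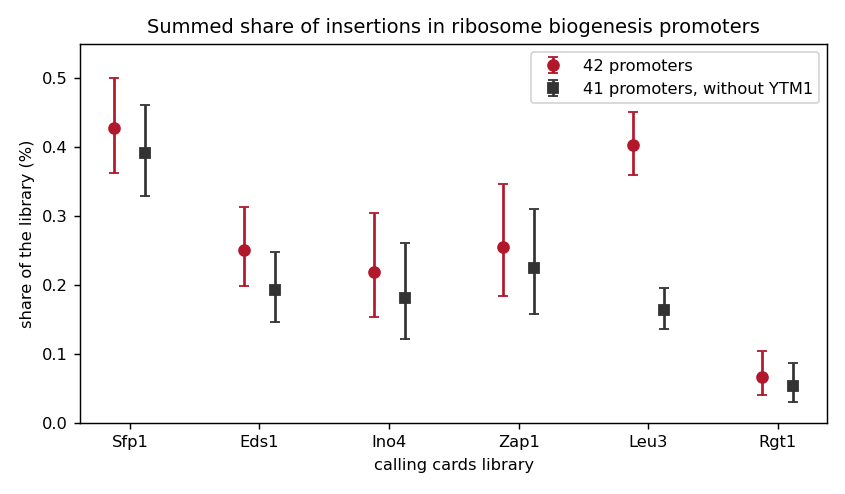
Share of each library (vertical axis, %) in the windows of 42 ribosome biogenesis genes (circles) and of 41 genes without YTM1 (squares), with exact 95% binomial intervals, by library. Sfp1 sits at 0.428% and stays at 0.392% without YTM1, and Leu3 sits at 0.404% and at 0.164% without YTM1.

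Empty windows also differed between libraries. Sfp1 had no insertion in 6 of the 42 windows, against 16 for Eds1, 25 for Ino4, 20 for Zap1, 2 for Leu3 and 30 for Rgt1. As shares these were 14.3% for Sfp1, 38.1% for Eds1, 59.5% for Ino4, 47.6% for Zap1, 4.76% for Leu3 and 71.4% for Rgt1. Over all genes the shares of empty windows were 12.4%, 17.6%, 30.3%, 32.4%, 8.83% and 46.0% in the same order of libraries. These counts move with library size, which was largest for Leu3 and smallest for Ino4.

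Sfp1 was next set against the Eds1, Ino4 and Zap1 libraries pooled, which leaves out the concentrated Leu3 and Rgt1 libraries. The 42 windows held 153 insertions on each side, of 35758 for Sfp1 and 62677 for the pool, a ratio of shares of 1.75 (95% interval 1.39 to 2.21). The ratio was 1.45 (1.33 to 1.58) for ribosomal protein genes, 1.11 (0.976 to 1.27) for the other ribosome biogenesis genes and 1.03 for all genes. Without YTM1 it was 1.98, and without both SNU13 and CBF5 it was 1.48 (1.15 to 1.91). Counting insertions within 5 bp of each other once gave 1.51 (1.18 to 1.95). The Sfp1 share was higher than the pooled share in 27 of the 42 windows (64.3%), lower in 14, and both were 0 at RPA49. It was higher in 72.4% of ribosomal protein windows, 51.4% of other ribosome biogenesis windows and 51.3% of all windows.

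**Figure D3:**
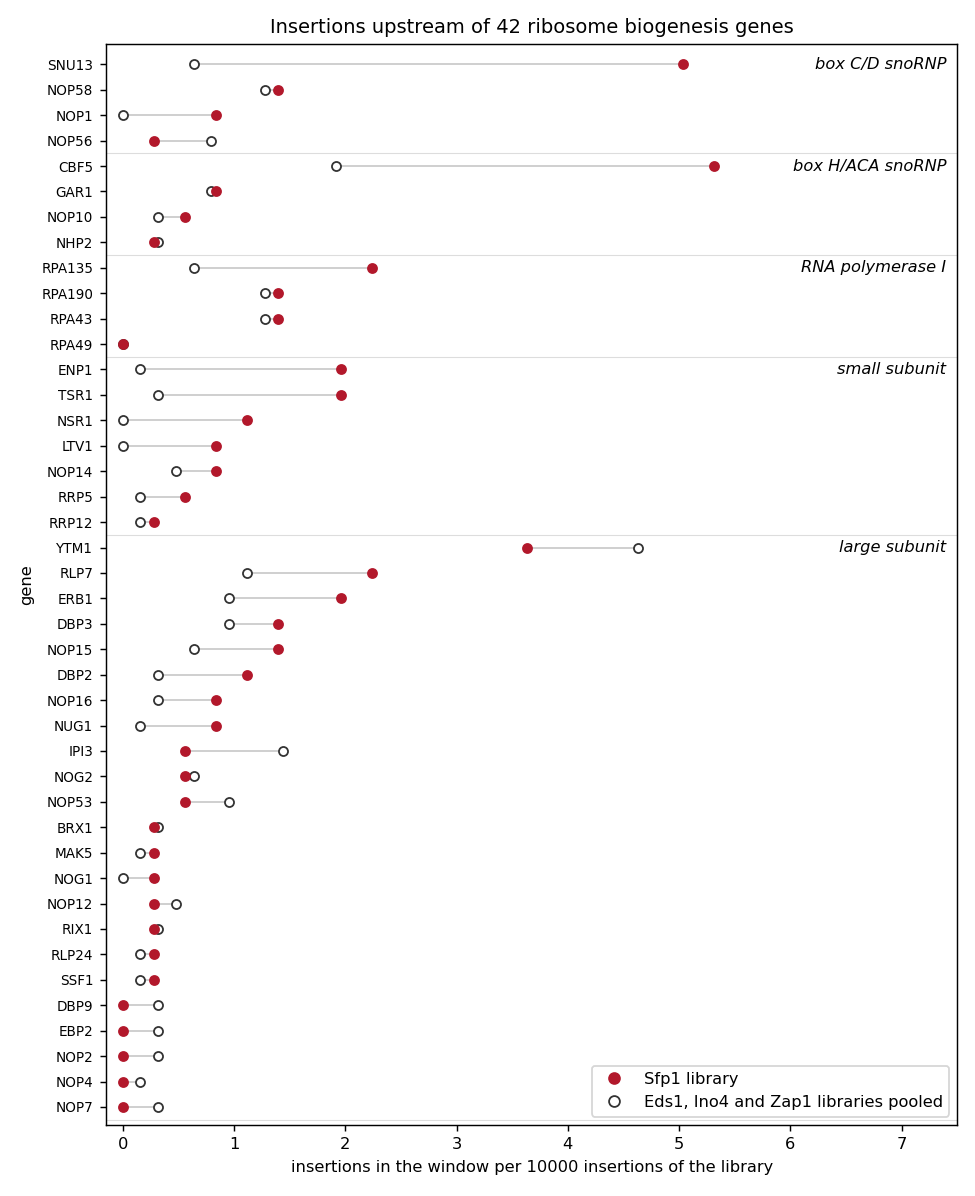
Insertions per 10000 insertions of the library (horizontal axis) in the window of each of 42 genes (rows, by functional group), in the Sfp1 library (filled) and in the Eds1, Ino4 and Zap1 libraries pooled (open). SNU13 and CBF5 stand apart at 5.03 and 5.31 per 10000 in Sfp1, and all 7 genes of the small subunit have the filled point to the right.

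The groups did not share the excess equally. The 7 small subunit genes held 27 Sfp1 insertions, against 8 in the pool, a ratio of 5.92 (2.61 to 15.1). Box C/D genes held 27 against 17 (ratio 2.78, 1.46 to 5.44), box H/ACA genes 25 against 21 (2.09, 1.12 to 3.92), and RNA polymerase I genes 13 against 12 (1.90, 0.799 to 4.55). The 23 large subunit genes counted held 61 against 95, a ratio of 1.13 (0.802 to 1.57). The small subunit group was singled out after its values were seen, and the intervals cover counting error only. They therefore do not test a difference between groups. Of its 27 Sfp1 insertions, 7 lay at ENP1 and 7 at TSR1, and no ratio without these genes was computed. The box C/D ratio rested on SNU13 and the box H/ACA ratio on CBF5: without them the ratios were 1.21 (0.458 to 3.07) and 1.17 (0.342 to 3.68). The small subunit ratio was 5.19 (2.24 to 13.4) when insertions within 5 bp were counted once. Another 51 small subunit genes that are not members had a ratio of 1.04 (0.861 to 1.25). Among the other lists, 12 further RNA polymerase I genes had a ratio of 1.78 (1.23 to 2.58), and 42 further large subunit genes 1.04 (0.829 to 1.31).

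**Figure D4:**
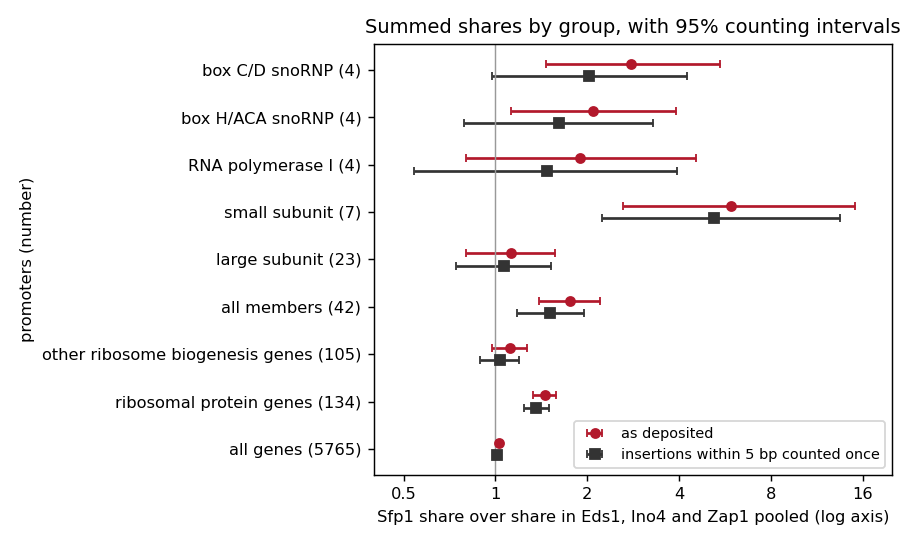
Ratio of the Sfp1 share to the pooled share of Eds1, Ino4 and Zap1 (horizontal log axis) for each group of genes, with 95% counting intervals, as deposited (circles) and with insertions within 5 bp counted once (squares). The small subunit group is farthest to the right at 5.92, and large subunit genes, other ribosome biogenesis genes and all genes lie near 1.

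Single windows were tested by two-sided Fisher's exact test, with Benjamini-Hochberg adjustment over all windows that held at least 10 insertions in the libraries compared. That minimum counted the tested library too, so a sparse window could enter through a high count in it. Medians and unadjusted shares of tested windows, here and below, are thus partly selected on the outcome. Sparse windows were more common among the members, so the values over all windows do not remove this. A window was called raised or lowered at an adjusted p under 0.05. Log2 ratios were computed after adding 1 insertion to each side. This raises the ratio where the library holds fewer insertions than the pool, most in sparse windows. Against Eds1, Ino4 and Zap1, 11 of the 42 windows could be tested and 1 of them, SNU13, was raised, with none lowered. Over all 2613 windows tested, 1.49% were raised and 0.880% lowered. The tested windows had a median log2 ratio of 0.59, against 0.16 over all windows tested, and 9 of the 11 lay above that. Among these 9 are RPA190 and RPA43, which hold the same insertions. At an unadjusted p under 0.05 there were 3 (SNU13, CBF5 and RPA135, 27.3% of the 11), all higher in Sfp1, against 7.96% of all windows tested.

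Against all other 5 libraries, 18 windows were tested. SNU13, CBF5 and ENP1 were raised and YTM1 was lowered, against 5.93% raised and 2.81% lowered over all 3742 windows. The median log2 ratio was 1.36, against 0.65 over all, and 12 of the 18 were above it. The level depended on the totals. With totals taken from windows in which no TF was enriched, every log2 ratio was lower by 0.43, the call of SNU13 remained and those of CBF5 and ENP1 did not (adjusted p 0.0537 and 0.0957, Fisher's exact test). With those totals 84 of all windows were raised and 144 lowered, against 222 and 105 with library totals. The 8 members with higher Sfp1 shares at an unadjusted p under 0.05 were SNU13, CBF5, ENP1, TSR1, RLP7, ERB1, RPA135 and NOP15, or 44.4% of the 18, against 16.4% of all windows tested. RLP7 and NOP15 are named here after their values were seen.

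SNU13 encodes a protein that binds the folded motif at the heart of box C/D snoRNAs and also the U4 snRNA of the spliceosome. Its window, on chromosome V, held 18 Sfp1 insertions, against 1 from Eds1, 2 from Ino4, 1 from Zap1, 4 from Leu3 and none from Rgt1. In the Sfp1 library this was 5.03 per 10000, against 0.638 per 10000 in Eds1, Ino4 and Zap1 pooled, a log2 ratio of 2.74 (adjusted p = 0.00139, Fisher's exact test). Against all other 5 libraries the log2 ratio was 3.31 (adjusted p = 5.5e-07, Fisher's exact test). The 18 insertions were at 18 distinct positions, and 14 of them lay within 98 bp, from position 101682 to 101779 of release R61, with 1 to 260 reads each. The same stretch held 1 Ino4, 1 Zap1 and 2 Leu3 insertions. Without the Eds1 library in the pool the adjusted p was 0.0978 (Fisher's exact test). With insertions within 5 bp counted once the log2 ratios were 1.85 and 1.99, and neither passed the test (adjusted p = 0.926 and 0.442, Fisher's exact test). Under that way of counting no window of any gene was raised in Sfp1. Against their other 5 libraries, 87 windows were still raised in Rgt1, 8 in Zap1, 7 in Leu3, 5 in Eds1 and none in Ino4.

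The other box C/D genes held fewer insertions. NOP58, a core scaffold protein, had 5 Sfp1 insertions, against 5 from Eds1, 3 from Ino4, none from Zap1, 3 from Leu3 and none from Rgt1, with a log2 ratio of 0.22 against the pool of 3. NOP56, its partner, had 1 Sfp1 insertion of 10 in all, and NOP1 had 3 of 3.

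CBF5, the pseudouridine synthase of box H/ACA particles, had the most Sfp1 insertions of all members. Its window on chromosome XII held 19, against 5 from Eds1, 3 from Ino4, 4 from Zap1, 13 from Leu3 and 1 from Rgt1. The level was 5.31 per 10000 in Sfp1, against 1.91 in the pool of Eds1, Ino4 and Zap1. The log2 ratio was 1.80 against the other 5 libraries (adjusted p = 0.0024, Fisher's exact test) and 1.43 against the pool, which did not pass (adjusted p = 0.124, Fisher's exact test). In all, 13 of the 19 insertions lay between positions 505952 and 506040, at 10 distinct positions, in the part of the window nearer to the start codon. A window of 500 bp, or one ended at the neighbouring coding sequence, brought the comparison with the pool past the threshold (adjusted p = 0.014 and 0.015, Fisher's exact test). Counting each position once removed the call against the other 5 libraries (adjusted p = 0.0866, Fisher's exact test). Its partners GAR1, NHP2 and NOP10 had 1 to 3 Sfp1 insertions and 5 to 12 in all.

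**Figure D5:**
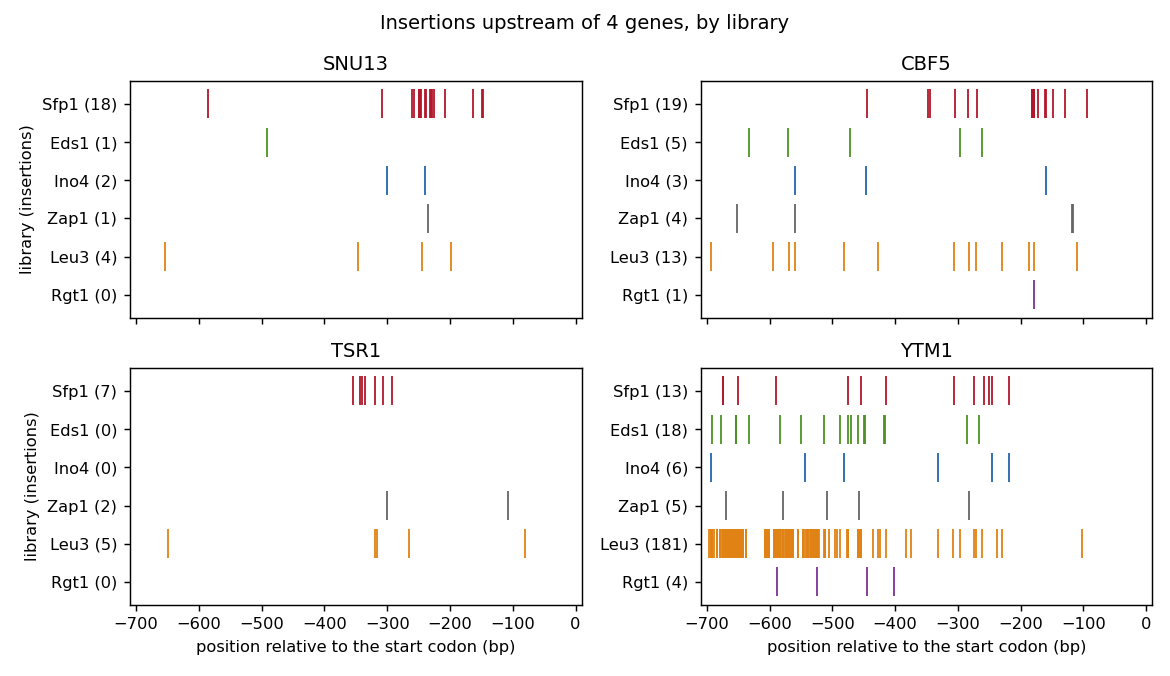
Insertions upstream of SNU13, CBF5, TSR1 and YTM1 by distance from the start codon (horizontal axis, bp), one line per library, with the number of insertions beside its name. The Sfp1 insertions of SNU13, CBF5 and TSR1 bunch in short stretches, with 14 of 18, 13 of 19 and 7 of 7 within 100 bp, and the 181 Leu3 insertions of YTM1 fill the distal part of the window.

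All 7 small subunit windows had a higher share in Sfp1 than in the pool of Eds1, Ino4 and Zap1. None of the 7 held an insertion from Ino4 or Rgt1. ENP1, which rides on the pre-40S particle, had 7 Sfp1 insertions, against 1 from Eds1, none from Ino4 or Zap1, 4 from Leu3 and none from Rgt1. Its 7 Sfp1 insertions were at 6 distinct positions on chromosome II, of which 714530, 714593 and 714645 also held Leu3 insertions. Its log2 ratio to the other 5 libraries was 2.65 (adjusted p = 0.0242, Fisher's exact test). The call was lost when positions were counted once (adjusted p = 0.133), when at least 2 reads were required (0.0767) and without the Rgt1 library (0.0625), all by Fisher's exact test. The log2 ratios there were 2.24, 2.34 and 2.37, close to the 2.65. The call was also lost with totals from windows in which no TF was enriched (adjusted p = 0.0957, Fisher's exact test). So it was with insertions within 5 bp counted once (adjusted p = 0.860, Fisher's exact test). With 8 insertions in Sfp1 and the pool of 3 together ENP1 was under the minimum for that test.

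TSR1, a GTPase-like factor of late pre-40S particles, also had 7 Sfp1 insertions, against none from Eds1 or Ino4, 2 from Zap1, 5 from Leu3 and none from Rgt1. Its log2 ratio to the other 5 libraries was 2.23, which did not pass (adjusted p = 0.0587, Fisher's exact test). It did pass with a window of 500 bp, with a Poisson test and without the Zap1 library. The Poisson test, which is one-sided, raised 8.93% of all windows in that comparison, against 5.93% by Fisher's exact test. The 7 were at 7 distinct positions within 63 bp, from 341265 to 341327 on chromosome IV. TSR1 is divergent from RPS29B, a ribosomal protein gene with a window that also held 7 Sfp1 insertions and was raised against the other 5 libraries (adjusted p = 0.0242, Fisher's exact test). The pair lie 820 bp apart and their windows overlap, and all 7 insertions of TSR1 lie in both, so the genes cannot be told apart here. The other 5 genes of the group, NSR1, LTV1, NOP14, RRP5 and RRP12, had 1 to 4 Sfp1 insertions and 4 to 9 in all. NSR1, the yeast relative of nucleolin, had 4 from Sfp1 and 5 from Leu3 and none from the other libraries.

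Of the RNA polymerase I genes, RPA135, the second-largest subunit, had the highest Sfp1 level. It held 8 Sfp1 insertions, against 2 from Eds1, 2 from Ino4, none from Zap1, 8 from Leu3 and 2 from Rgt1. The log2 ratio to the pool of 3 was 1.66, which did not pass (adjusted p = 0.376, Fisher's exact test). Here 5 of the 8 Sfp1 insertions lay within 7 bp, from 581371 to 581377 on chromosome XVI. RPA190, the largest subunit, and RPA43, which joins the polymerase to its initiation factor, are divergent, and their windows held the same 22 insertions. These were 5 from Sfp1, 4 from Eds1, 2 from Ino4, 2 from Zap1, 6 from Leu3 and 3 from Rgt1. Both windows enter the counts of windows given above, though they hold the same insertions. Their log2 ratio to the pool was 0.22.

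The large subunit group contained the densest window and 8 of the 11 sparsest. YTM1, which with ERB1 and NOP7 forms a complex of early pre-60S particles, held 227 of the insertions. Of these, 13 were from Sfp1, 18 from Eds1, 6 from Ino4, 5 from Zap1, 181 from Leu3 and 4 from Rgt1. Leu3 was raised there (log2 ratio 2.72, adjusted p = 1.6e-37, Fisher's exact test), the only call for a higher share in Leu3 among the 18 members tested, against 4.54% raised and 4.25% lowered over all windows. The Leu3 insertions lay far from YTM1: 153 of the 181 (84.5%) were more than 500 bp upstream, and 94 lay within 100 bp, from 832130 to 832229 on chromosome XV, at 43 distinct positions. The divergent neighbour FSF1, a mitochondrial membrane protein, is 770 bp away and had 186 Leu3 insertions in its own window. With a window of 500 bp YTM1 was no longer raised in Leu3 (log2 ratio 0.81, adjusted p = 0.248, Fisher's exact test). Nor was it with insertions within 5 bp counted once (log2 ratio 0.40, adjusted p = 1, Fisher's exact test).

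The high Leu3 count at YTM1 enters the background of every other library. YTM1 was lowered in Sfp1 (log2 ratio -1.71, adjusted p = 8.7e-06), Rgt1 (-2.94, adjusted p = 2.4e-09), Zap1 (-1.66, adjusted p = 0.0213) and Eds1 (-0.97, adjusted p = 0.0493), and in Ino4 did not pass (-1.43, adjusted p = 0.0595), all by Fisher's exact test. Against Eds1, Ino4 and Zap1 alone, Sfp1 had 3.64 insertions per 10000 at YTM1, against 4.63, and the ratio was 0.786 (0.375 to 1.56). That interval includes equal shares.

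Its partner ERB1 had 7 Sfp1 insertions, against 1 from Eds1, 2 from Ino4, 3 from Zap1, 5 from Leu3 and 1 from Rgt1, with a log2 ratio of 1.00 to the pool (adjusted p = 0.777, Fisher's exact test). The upstream neighbour of ERB1 is a reading frame of a Ty element, YMR050C. IPI3, which works with RIX1 in a late pre-60S complex, had the lowest ratio to the pool of Eds1, Ino4 and Zap1 among the 11 windows tested. It held 2 Sfp1 insertions, against 2 from Eds1, 3 from Ino4, 4 from Zap1, 7 from Leu3 and 1 from Rgt1, and its log2 ratio of -0.93 to that pool did not pass (adjusted p = 0.852, Fisher's exact test).

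NOP53, which brings the nuclear exosome to pre-60S particles, was the only member raised in Eds1. It had 6 Eds1 insertions, against 2 from Sfp1, none from Ino4 or Zap1, 2 from Leu3 and none from Rgt1, with a log2 ratio of 2.98 (adjusted p = 0.0461, Fisher's exact test). Over all windows 1.12% were raised in Eds1 and 2.00% lowered. The NOP53 call did not hold when each position was counted once (adjusted p = 0.111), nor without the Ino4, Rgt1 or Zap1 library (0.0535, 0.0687 and 0.0562, all by Fisher's exact test). The log2 ratios there were 2.76, 2.84, 2.71 and 2.84, close to the 2.98. The 6 insertions carried few reads, 1 to 4 in the densest stretch, in a library with a median of 3. The remaining large subunit genes not yet given held 0 to 8 Sfp1 insertions each. They are NOP12, NOP15, NOP16, DBP2, DBP3, MAK5, RLP7, NOG2, NUG1, BRX1 and EBP2, with 5 to 20 insertions in all.

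No member was called for Ino4 (2 had an unadjusted p under 0.05, RLP7 higher and YTM1 lower), against 1.15% raised and 1.60% lowered over all windows. For Rgt1, 7.24% of all windows were lowered and 2.32% raised, and for Zap1 1.47% were lowered and 1.20% raised, with YTM1 the only member called in either library. Totals from windows in which no TF was enriched changed these balances over all windows, to 139 raised and 33 lowered in Rgt1, against 87 and 271 with library totals. They gave 30 and 73 in Zap1, against 45 and 55, and 197 and 93 in Leu3, against 170 and 159. In Eds1 they gave 15 and 107, against 42 and 75, and in Ino4 21 and 85, against 43 and 60. Rgt1 placed 20 insertions in the 42 windows, a share 0.191 times that of the other libraries together (0.116 to 0.298), beside 0.311 times for ribosomal protein genes and 0.890 times for all genes. With totals from windows in which no TF was enriched it was 0.474 times (0.287 to 0.738). The median log2 ratio of the 18 tested members was then 0.50 instead of -0.81, beside 0.40 instead of -0.91 over all windows. These medians carry the 1 insertion added to each side, so a positive median does not show a higher Rgt1 share. At RPA190, with library totals, the Rgt1 share was 0.923 times that of the others, while the log2 ratio was 0.22.

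The 105 other ribosome biogenesis genes were counted in the same way. Against the other 5 libraries, 53 were tested for Sfp1. EMG1, LOC1, RIO1, RPC19 and RRP15 were raised and HAS1 was lowered, beside the 5.93% and 2.81% of all windows, with a median log2 ratio of 0.53, against 0.65 over all windows. Against Eds1, Ino4 and Zap1, 28 were tested and RIO1, a kinase of late 40S maturation, was raised. Of 134 ribosomal protein genes, 18 of 121 tested were raised against the other 5 libraries and none lowered, and 1 of 101, RPS4B, was raised against the pool of 3.

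Over all member windows, 43.6% of the insertions lay within 300 bp of the start codon, against 41.6% for ribosomal protein genes and 45.7% for all genes. Without YTM1, left out after its values were seen, it was 62.9%. No window was left out of the other sets. The 201 to 300 bp bin was the fullest, with 127 insertions, or 29.8% of those outside YTM1. Distances carry the small difference between the gene table and the files, at most 30 bp on the chromosomes other than XI in the check made on coding sequence.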

How the data were processed

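The deposited files list each recovered Ty5 insertion with its chromosome, position and read count. Positions are those of genome release R61, to which the authors aligned. Novoalign is the tool in the submitters' processing notes, with its version not given in the sources used. The counts were not normalized by the authors. Each line was taken as 1 insertion, whatever its read count. Several files run through the chromosomes more than once, 1 run for Sfp1, 2 for Eds1, Ino4 and Zap1, 4 for Rgt1 and 5 for Leu3; their meaning is not stated, and they were not treated as replicates. No column of per-sample values was left unused.

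Start codons were taken from a RefSeq table of genes (assembly R64), none of whose coordinates is printed. Its fit was checked by the share of insertions inside coding sequence. On chromosome XI this share was 47.1%, and 29.7% with an offset of 370 bp from about position 196397, so 237 genes beyond the step, with a margin of 10 kb, were left out. On the other chromosomes the best single offset was between -30 and 20 bp.

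The members, lists and tests were chosen with earlier results of these data known. Values per library are given for members called in any comparison, the 4 highest and 4 lowest tested log2 ratios to Eds1, Ino4 and Zap1 (with ties), the 4 with most insertions, those with under 5, and the highest Sfp1 share of each group. Tests were two-sided Fisher's exact tests on insertion counts with library totals (scipy 1.17.1, Python 3.11.15, numpy 2.4.6, pandas 2.3.3), tested on simulated data. The simulated counts were independent draws without clusters of insertions, so they do not show the rate of false calls where insertions cluster. Intervals of ratios are exact, at 95%. Figures were drawn with matplotlib 3.10.9. Alternatives were other ways of counting insertions, other windows, totals and tests, and each library left out.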

Additional observations from a re-analysis of the deposited data

How the results depend on the processing

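The ratio of summed shares of Sfp1 to Eds1, Ino4 and Zap1 lay between 1.48 and 2.12 in all alternatives run. The ratio to the other 5 libraries, given in the report, was 2.44 with a window of 500 bp, 1.12 (0.925 to 1.34) with totals from windows in which no TF was enriched, 2.29 without the Leu3 library, 2.49 without YTM1 and 1.23 (0.992 to 1.51) without SNU13 and CBF5 (these last exclusions chosen after seeing the data). The intervals at 1.12 and 1.23 include equal shares. The value of 1.12 keeps all insertions at YTM1, while its totals leave out enriched windows. Leaving out members shows that YTM1, SNU13 and CBF5 set much of it.

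Counts of members called were 4 for Sfp1 against the other 5 libraries, 1 against Eds1, Ino4 and Zap1, 2 for Eds1, 0 for Ino4 and 1 each for Leu3, Rgt1 and Zap1. With each position counted once they were 2 for Sfp1 against the other 5 and 0 for Eds1 and Zap1. With insertions within 5 bp counted once all were 0, and over all windows 0% were raised in Sfp1. Over all windows 2.46% were then still raised in Rgt1, 0.226% in Zap1, 0.198% in Leu3 and 0.141% in Eds1. With at least 2 reads Eds1 and Zap1 had 0, and with no minimum of insertions Eds1 had 0. The window of 500 bp gave 2 for Sfp1 against Eds1, Ino4 and Zap1 and 0 for Eds1, Leu3, Rgt1 and Zap1. Ending windows at the neighbouring coding sequence, and a Poisson test, each gave 2 for Sfp1 against Eds1, Ino4 and Zap1. Over all windows in that comparison the one-sided Poisson test raised 5.93%, the ended windows 2.09% and windows of 500 bp 1.67%, against 1.49% as first tested. A shift of 50 bp upstream gave 1 for Ino4, and downstream 1 for Eds1 and 0 for Zap1. Totals from windows in which no TF was enriched gave 2 for Sfp1 against the other 5, 1 for Eds1 and 1 for Ino4. The one-sided test gave 0 for Eds1. Without the Leu3 library there were 2 for Sfp1 against the other 5, 0 for Eds1, 2 for Rgt1 and 0 for Zap1. Without Eds1 there were 0 for Sfp1 against Ino4 and Zap1, 1 for Ino4 and 2 for Leu3. Eds1 and Ino4 had 1 each without Rgt1, without Sfp1 and without Zap1, Eds1 had 1 without Ino4, and Leu3 had 2 without Rgt1. The other 94 of 140 alternatives moved no count by over 1.5 times and no ratio beyond its interval. Of 103 alternatives for the calls of SNU13, CBF5, ENP1, YTM1 and NOP53 given in the report, and for CBF5 against Eds1, Ino4 and Zap1, 21 lost the call, 3 gained one (CBF5) and 0 changed direction. Alternatives in which the window fell under the minimum, such as NOP53 with a window of 500 bp, are not among the 103. Outside the calls listed, TSR1 gained a call in Sfp1 in 3 alternatives and RLP7 in 1. YTM1 gained one in Ino4 in 6 alternatives, where its log2 ratio as first tested was -1.43. SNU13 gained one in Leu3 (-1.44 as first tested) without Eds1 and without Rgt1. Without Leu3, SNU13 (-2.21) and CBF5 (-1.95) gained one in Rgt1. Shares over all windows are not given here for the libraries left out, so those counts have no background beside them. The cause was not tested.

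Depth limits these windows: 24 of 42 fell under the minimum of 10 insertions and could not be tested against the other 5 libraries. No paired analysis was possible because each TF has 1 library.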
